A study of Mus musculus with 12 samples.

Results

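Livers of Z mice and M mice were compared in the state in which neither line was expressing its human transgene. M mice carry wild-type human alpha1-antitrypsin and Z mice carry the mutant Z form, each under an inducible system restricted to hepatocytes, and the labels tie each form to its own line of mice. The animals were males of 6 weeks. The off groups, M off and Z off, drank doxycycline at 40 µg/mL from conception to sacrifice, which keeps the transgene silent, so the drug is shared by both sides of the comparison. Members were chosen by sample title: 6 of the 12 arrays of the series, 3 M off and 3 Z off, each labelled a biological replicate. The other 6 arrays, 3 M on and 3 Z on, came from mice of the same 2 lines kept without doxycycline. They are used here as a second set of arrays on which a difference between the lines can be read. Those mice also express different forms of the protein, so Z on minus M on holds line and form together. The comparison of the off groups asks how far the lines already differ before the Z protein is made. With 1 line for each form, strain background, insertion site of the transgene, husbandry, the hour of sacrifice and any leak of the silent transgene cannot be told apart from one another in it. The labels name neither a strain nor the hour.

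Alpha1-antitrypsin is a serpin that hepatocytes secrete into blood, where it restrains neutrophil proteases. The Z form misfolds, polymerises and accumulates inside the endoplasmic reticulum of the hepatocyte, and lines that express it under control of doxycycline serve as models of the resulting liver disease. In such a model the silent state is the reference against which expression is judged, so a gene that differs between silent lines enters any later comparison of Z with M livers. Liver transcripts also follow feeding, the hour of the day and sex hormones, and many of the genes below belong to those programmes.

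Total RNA was hybridised to 1-colour Affymetrix arrays, and the values are probe set signals on a linear scale, with array medians between 38.7 and 47. The labelled tissue was borne out by its markers: all 10 hepatocyte genes measured had a mean signal of 100 or more, and their summed signal was 113018 to 155025 in M off and 116183 to 133562 in Z off. Alb, the gene of serum albumin, read 26306, 21359.3 and 16710.8 in M off and 22924.9, 19139.4 and 17340.6 in Z off. Serpina1c, a mouse counterpart of the transgene, read 24513.9, 22986.4 and 20972 against 23419.4, 19099.7 and 18029.5 (log2 -0.18, SE 0.18). Both overlapped between the groups. Correlations between arrays were 0.9705 to 0.9815 within M off, 0.9503 to 0.9708 within Z off and 0.9431 to 0.9548 between them. The Z off arrays stood apart from the rest of the series on the first principal component (23% of the variance), with scores of 18.4 to 19.5 against at most 10.8 elsewhere. RNA quality measures moved with the group too. Beta-actin probe sets gave 3′ over 5′ signal ratios of 2.72 to 3.89 in M off and 2.18 to 2.53 in Z off, and the 18S control read 568.2 to 709.8 in M off and 93.9 to 373 in Z off. Their part in the differences below was not tested.

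Among all 22626 probe sets tested, 16 passed an adjusted p under 0.05 between Z off and M off, which is 0.0707% of them, with 10 higher (0.0442%) and 6 lower (0.0265%) in Z off. At an unadjusted p under 0.05 the share was 7.73%. Signals near the bottom of the scale vary widely on the log2 scale. The same fit was therefore also made on the 7083 probe sets with a mean signal of 100 or more over all 12 arrays. There 52 were called (0.734%), 23 higher (0.325%) and 29 lower (0.409%), from 44 named genes and 4 probe sets without a single symbol. For 17 of the 52 the mean of 1 off group was under 100, so that they entered the brighter set through the other groups, the on groups included. "Called" below means called among all probe sets unless the brighter set is named. The lowest and the highest signals of the 2 groups did not overlap for any of the 16 or the 52, as they did not for 15.1% of all and 22.7% of the brighter probe sets. The 16 calls were few and rested on every array: leaving out M off replicate 1, 2 or 3 left 3, 5 or 1, and leaving out Z off replicate 1, 2 or 3 left 6, 5 or 6. When the limma fit held only the 6 off arrays, 0 probe sets passed (7.62% at an unadjusted p under 0.05), against 84 in the brighter set.

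Alas2 had the clearest difference among the genes higher in Z off. It encodes aminolevulinate synthase of red cell precursors, the enzyme that starts heme formation in those cells. The M off arrays read 306.6, 254.2 and 262, and the Z off arrays 1456.1, 1259.1 and 1118.8, so every Z off array lay far above every M off array. On the log2 scale Alas2 was higher by 2.22 (SE 0.20, adjusted p = 0.00832). On the arrays of expressing mice the order was turned: M on read 230.8 to 253.9 and Z on 136.5 to 210.7. High Alas2 was therefore seen on the Z off arrays and in none of the other 3 groups.

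Acaa2, a thiolase of mitochondrial fatty acid oxidation, was the brightest gene called. Its probe set read 1833.9, 1846.4 and 1709.3 in M off and 5347.6, 5512.5 and 5197.3 in Z off (log2 1.58, SE 0.18, adjusted p = 0.0287). The arrays within each group lay close together and the groups were far apart. Rps9, a protein of the small ribosomal subunit, read 54.8, 16.1 and 57.3 in M off and 483.3, 332.1 and 441.5 in Z off (log2 3.48, SE 0.43, adjusted p = 0.0349). Uri1, a prefoldin-like protein that binds an RNA polymerase subunit, read 79.1, 51.4 and 74.6 against 303, 246.2 and 232.6 (log2 1.95, SE 0.25, adjusted p = 0.0349). For both, M off was dim and Z off was well measured. Isoc2b, an isochorismatase domain protein, rose from 48.6 ± 16.4 to 198 ± 20.9 (log2 2.07, SE 0.27, adjusted p = 0.0359). Vps37c, a subunit of the ESCRT-I sorting complex, was at 79.2 ± 8.29 in M off and 243 ± 24.9 in Z off (mean ± SD, n = 3 each; log2 1.62, SE 0.20, adjusted p = 0.0349). These 6 genes are all the called genes with a mean of 100 or more over the off arrays that were higher in Z off.

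Of the 4 called genes of that brightness that were lower in Z off, Asic5 had the smallest p of the comparison. It encodes a channel of the acid-sensing family, also called the bile acid sensitive ion channel. M off read 493.3, 521.7 and 422.2 and Z off 36, 60 and 42.5 (log2 -3.40, SE 0.21, adjusted p = 0.000594). The Z off arrays were thus at 9.64% of the M off mean. Mccc1, a subunit of the mitochondrial carboxylase of leucine breakdown, read 576.1, 524.9 and 486.7 in M off and 233.3, 188.6 and 178.4 in Z off (log2 -1.41, SE 0.18, adjusted p = 0.0349). Aldh1b1, a mitochondrial aldehyde dehydrogenase, read 302.9, 244.7 and 341.9 against 105.4, 86.8 and 61.5 (log2 -1.83, SE 0.24, adjusted p = 0.0359). Cyp3a13, a drug-metabolising cytochrome P450, fell from 682 ± 68.8 to 201 ± 28.3 (log2 -1.77, SE 0.21, adjusted p = 0.0344). In each of the 4 genes every Z off array lay below every M off array.

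**Figure D1:**
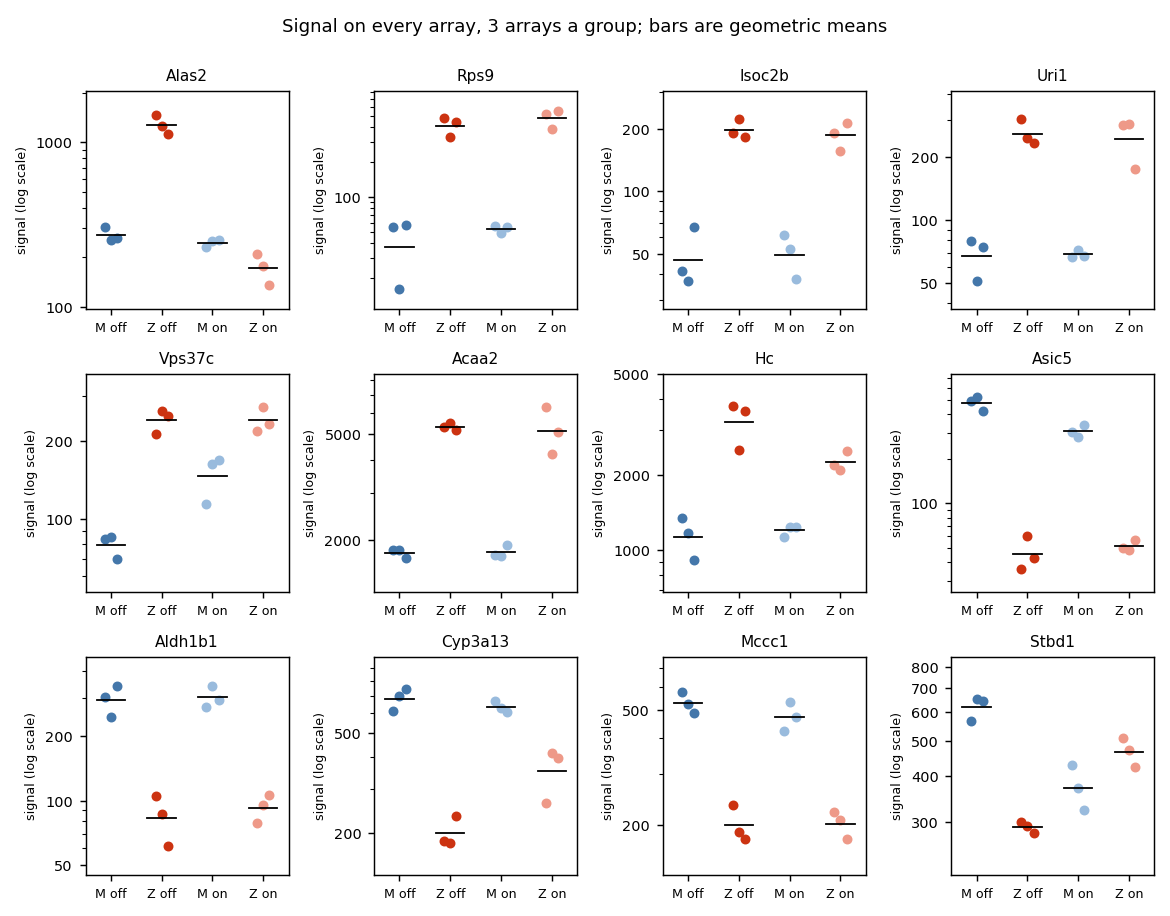
Signal of 12 genes on every array of the 4 groups, on log axes, with 3 arrays a group and bars at geometric means. The 10 called genes of higher signal are shown with Hc and Stbd1; Asic5, Aldh1b1, Mccc1, Rps9, Isoc2b, Uri1 and Acaa2 split the Z from the M groups in both states, while Alas2 is high on the Z off arrays (1118.8 to 1456.1) and at or below 306.6 elsewhere.

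The remaining 6 calls were dim, with a mean under 100. Mndal, an interferon-induced member of the PYHIN proteins, was lower in Z off on both of its probe sets: 82.9, 76.3 and 84.6 against 3.1, 1 and 1.9 on the brighter of them (log2 -5.49, SE 0.51, adjusted p = 0.00832), and 62.5 ± 21.5 against 4.10 ± 2.65 on the other (mean ± SD, n = 3 each; log2 -4.21, adjusted p = 0.042). The Z off signals were at the floor of the scale, so the sizes are uncertain; with 50 added to each signal the first was -1.34. In mice expressing the Z form the brighter Mndal probe set read 23.1 to 99.8, overlapping M on. Nfkbie, an inhibitor of NF-kappaB, the homeobox gene Gbx2, the Notch modifier Lfng and a probe set without a symbol were called higher in Z off. Nfkbie read 3.53 ± 1.47 in M off and 22.9 ± 4.07 in Z off, and 27.0 ± 6.13 in M on. For these 4 probe sets M off was the group that stood apart, with all its arrays below the other 9.

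Below the threshold, the rule for named genes gave further genes as values. Hc, the complement component C5, read 1349.4, 1176.7 and 918.8 in M off and 3734.8, 2506.6 and 3570.1 in Z off, without overlap (log2 1.51, SE 0.21, adjusted p = 0.0517). It was called in the brighter set (adjusted p = 0.0011; 0.000366 to 0.528 over all alternatives). Anxa5, a phospholipid-binding annexin, read 266.8, 258.7 and 334.3 in M off and 37.4, 64.9 and 64.8 in Z off (log2 -2.40, SE 0.39). Stbd1, which anchors glycogen to membranes, was at 622 ± 45.7 in M off and 290.3 ± 10.2 in Z off (log2 -1.10, SE 0.17). Csad, an enzyme of taurine synthesis, was at 342 ± 193 and 1505 ± 128 (mean ± SD, n = 3 each; log2 2.33, SE 0.46). The groups of Hc, Anxa5, Stbd1 and Csad did not overlap, and all 4 were called in the brighter set. So were Ndufv1 (complex I, log2 1.20), Echdc3 (0.98), Pmvk (mevalonate pathway, 1.18), Ptprf (a receptor phosphatase, -1.28), Adcy9 (an adenylate cyclase, -1.02), Nudt2 (-0.84), Rdh9 (a retinol dehydrogenase, -1.21), Nr1d2 (-1.61) and Acad9 (assembly of complex I, -1.44). Tmem39a (1.91) was too dim for that set.

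How firmly the 52 brighter calls stand differed by gene. Leaving out each of the 6 off arrays in turn, 18 of the 52 passed in all 6 fits and 12 in none, and all 52 kept their direction. The 18 include the 10 brighter called genes, Hc, Stbd1, Anxa5, Ndufv1, Ptprf, Adcy9 and Mrps15, a protein of the mitochondrial ribosome. The last of the 18 is a probe set without a single symbol that read 741 ± 89.2 in M off and 45.5 ± 8.61 in Z off (log2 -4.04, SE 0.69). Among the 12 that passed in none were Cyp8b1 and a Dbp probe set. The spread in these fits is taken over all 4 groups, the on arrays included. In the brighter set the limma adjusted p of that Dbp probe set was 0.00117 with the off groups alone. It was 6.57e-05 without Z on replicate 3.

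Several genes are read by more than 1 probe set, and these did not always agree. Of the 48 genes called in either set, 26 had more than 1. Acaa2 was higher by 1.58 on its called probe set and by 0.06 and 0.15 on the others, whose signals were as high (2185 and 1764 in M off). Rps9 differed by 3.48 on the called probe set and by -0.38 on the brightest one, which read 1763 in M off and 1359 in Z off; the third, which was dim, differed by -1.12 off and -1.57 on. Uri1 differed by 1.95 on 1 probe set and by -0.28 and -0.18 on the others. Ndufv1 was higher on 2 probe sets (1.20 and 1.07) and differed by 0.13 on its brightest, which read 1265 in M off and 1387 in Z off. Acad9 was lower on 1 probe set (-1.44) and differed by 0.36 on a dim one. Mcl1 (-1.09 called, 0.19 to -0.96 on the others), Eif3e (-0.63 called, 0.01 on a brighter one) and Tm2d2 (-0.76 called, 0.47 on its brightest) were likewise uneven. So were Mrps15 (-1.26 called, -0.16 on a brighter one) and Adcy9 (-1.02 called, -0.32 and -0.35 on the others). Whether such a difference reflects the amount of transcript, a transcript variant or a base difference under the probes was not tested. Probe sets of some other genes lay on the same side. Dbp was lower by both (-4.22 and -3.82), Mndal by both, Tm7sf3 by all 3 (-0.83, -1.67 and -1.69), and the fatty acid transporter Cd36 by all 3 (-1.48, -1.31 and -0.76). Fabp5 was higher on both (1.63 and 1.54). Ptprf was lower on 3 of 3 but by unequal amounts (-1.28, -0.87 and -0.23). Alas2, Asic5, Mccc1, Hc, Stbd1 and Anxa5 had only 1 probe set each.

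**Figure D2:**
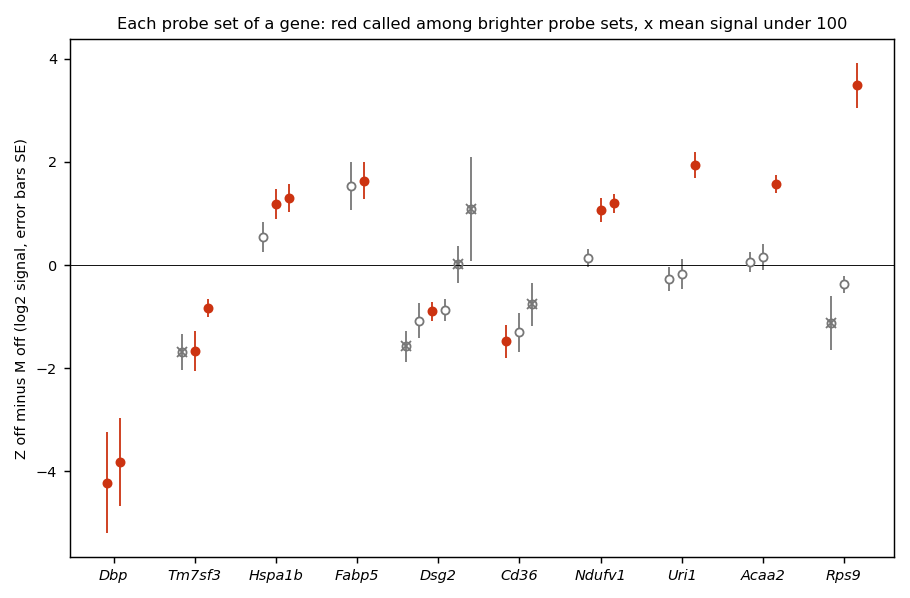
Log2 difference Z off minus M off for each probe set of 10 genes, with SE as error bars; red points were called in the brighter set and crosses mark a mean signal under 100 over the off arrays. Dbp and Tm7sf3 lie on the same side on all probe sets, while Uri1, Acaa2, Rps9 and Ndufv1 have probe sets far from each other.

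The arrays of expressing mice share no sample with the off arrays, so a difference between the lines could also be read in the on state. Neither line receives doxycycline there and each expresses its own form, so line and form cannot be told apart. The spread of both comparisons came from the same fit over all 12 arrays, so their p-values are not independent. In Z on minus M on 2 of the 22626 probe sets were called (0.00884%) and 23 of the brighter 7083 (0.325%). With the on groups alone 0 of the 22626 passed. Of the 16 off calls, 12 had the same direction in Z on minus M on, and 9 of these had an unadjusted p under 0.05, a level that 6.85% of all probe sets reached on. All 9 were among the brighter 10; Alas2 was the other. Asic5 was also called on, with M on at 300.8, 279.4 and 338.2 and Z on at 50, 48.1 and 56.4 (log2 -2.57, SE 0.21, adjusted p = 0.00806). Acaa2 differed by 1.51 on and 1.58 off, Rps9 by 3.18 and 3.48, Isoc2b by 1.90 and 2.07, Uri1 by 1.83 and 1.95, Aldh1b1 by -1.70 and -1.83, and Mccc1 by -1.23 and -1.41. In these 6 genes the on and off differences lay within 0.31 of each other.

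Of the 52 brighter off calls, 43 (82.7%) had the same direction on, against 58.6% of all 7083. Of the 52, 10 were called in both states, which is 19.2% of the 52 and 43.5% of the 23 called on: Asic5, Acaa2, Rps9, Uri1, Isoc2b, Mccc1, Aldh1b1, Anxa5, Nudt2 and Plbd1. The median size of the 52 differences was 1.23 off and 0.48 in the same direction on. They were chosen for their size in the off state, so a smaller value on the other arrays carries no test. The signal patterns fell into kinds. In 20 of the 52 all 6 Z arrays lay on 1 side of all 6 M arrays, as in 1.86% of the brighter probe sets; Hc, Adcy9, Cyp3a13, Tm2d2 and Mrps15 were among them beside the genes just named. In 28 the Z off arrays lay beyond all other 9 (3.8% of the brighter probe sets), and in 10 the M off arrays did (1.48%). Since the 52 were chosen for a gap between Z off and M off, shares above those of all brighter probe sets follow from the choice and are a description. A probe set may count in more than 1 kind, and 4 showed none of them. Ndufv1 was among those in which M off stood alone, on the 2 probe sets called but not on its brightest: on the first of them M off was at 553 ± 51.2, Z off at 1276 ± 228, M on at 1169 ± 169.7 and Z on at 1160.1 ± 78.6 (mean ± SD, n = 3 each).

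**Figure D3:**
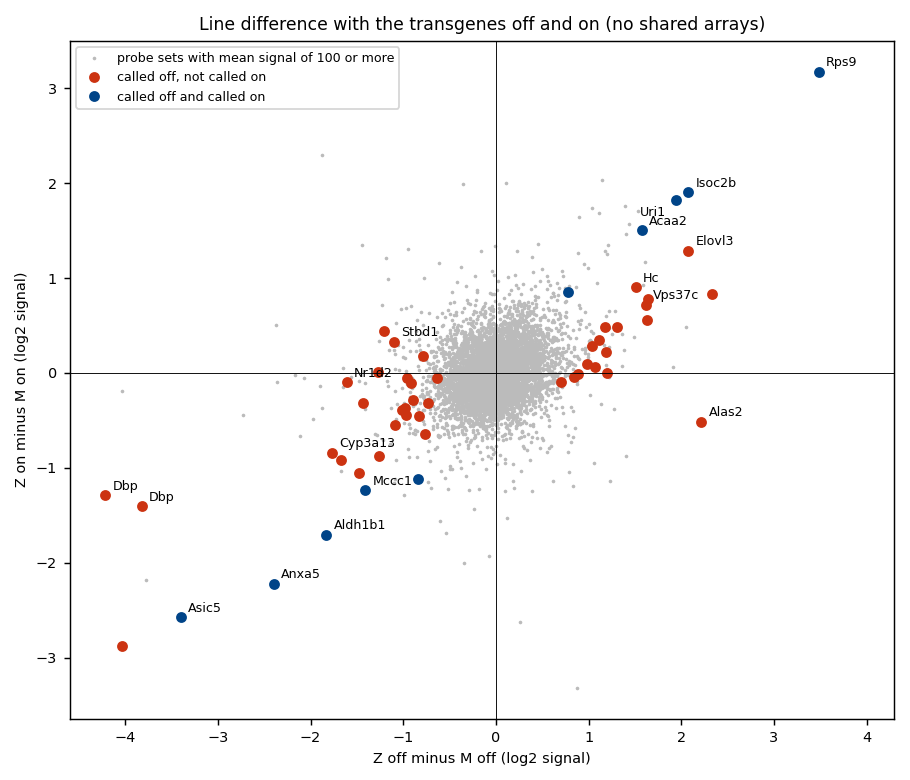
Log2 line difference with the transgenes on (vertical) against off (horizontal) for the brighter probe sets, which share no arrays between the axes. Blue points were called in both states and have the same sign in both (Rps9 3.48 and 3.18, Asic5 -3.40 and -2.57); red points were called off and not on, with Alas2 (2.22 and -0.51) and Dbp (-4.22 and -1.29) away from the others.

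Whether a line difference itself changed with the state was tested as an interaction. In limma 0 of the 22626 probe sets passed (0%; 5.18% at an unadjusted p under 0.05; smallest adjusted p 0.0624, for Alas2), and 0 to 2 passed under other settings of the fit. Within the brighter set 2 passed (0.0282%), Alas2 and Stbd1. Stbd1 read 569.5, 653.2 and 643 in M off and 300, 291.2 and 279.7 in Z off, and 428.4, 372.2 and 322.8 in M on and 508.7, 471.1 and 424.6 in Z on. Z off was thus below M off on every array, while 2 of the 3 Z on arrays lay above all M on arrays. Its interaction was -1.42 (SE 0.24, adjusted p = 0.0306 in the brighter set). Rdh9 (-1.65) and Id3, an inhibitor of basic helix-loop-helix factors (2.03), had the next smallest p and were not called. Of the 52 brighter off calls, 25 had an interaction with an unadjusted p under 0.05 (7.92% of all brighter probe sets). The interaction holds the off difference by which the 52 were chosen, so nothing is read from that share.

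The order of the called genes along the chromosomes was examined, since lines of mice can differ in whole stretches of a chromosome. None of the 14 named genes of the 16 calls had another within 10 measured genes, against 2.29% of all 12157 genes placed. In the brighter set 3 of 44 genes did (6.82%), near the 6.89% of all genes. Those 3 are Mccc1, Acad9 and Anxa5, all lower in Z off on the called probe set, with 0 or 1 measured gene between them. The other probe set of Acad9, a dim one, differed by 0.36. Among the 10 genes called in both states, Mccc1 and Anxa5 had a neighbour within 10 genes (20%, against 1.49% of all genes). Rps9 and Isoc2b, both higher on the called probe set, had 18 measured genes between them. The other probe sets of Rps9 were lower (-0.38 and -1.12). Acaa1a (-0.91) and Cyp8b1 (1.64), of opposite direction, had 25. Within 30 measured genes, a wider window than the 10 planned, 7 of the 44 genes of the brighter set had another (15.9%), against 18.3% of all genes. For the 10 genes called in both states it was 4 (40%, against 3.86%). Rps9, counted by its called probe set, and Isoc2b were among these 4.

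The circadian clock genes had some of the widest gaps between the groups. In the liver clock, Arntl and Npas2 or Clock drive transcription of the Per, Cry and Nr1d genes from E-boxes. The Per and Cry proteins shut that drive off, and Dbp, Tef and Hlf pass the rhythm on through D-boxes while Nfil3 opposes them. The genes of the positive arm peak at another time of day than Dbp and Per. The hour of sacrifice is not given in the labels. Of 15 core clock genes measured, 5 of them with a mean signal of 100 or more, 5 were higher and 10 lower in Z off, with a median of -0.33, and the groups of 9 (60%) did not overlap, against 15.6% of 12393 genes. Of 14 clock output genes 4 were higher and 10 lower (median -0.22), and 7 (50%) did not overlap. No gene of these lists was among the 16 calls; Nr1d2 and Dbp were called in the brighter set.

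Dbp, the D-box activator, read 838.7, 1103.5 and 905.4 in M off and 107.1, 51.1 and 23.8 in Z off (log2 -4.22, SE 0.98). All 3 Z off arrays lay far below M off, and they also spread widely among themselves. The SE also holds the spread of the on arrays, which is given below for Z on. Nr1d2, a nuclear receptor that represses Arntl, read 666.4, 705 and 727.9 in M off and 300.4, 269.6 and 148.9 in Z off (log2 -1.61, SE 0.31). Per3 read 121, 139.4 and 113.8 against 45.9, 40.9 and 12.5 (log2 -2.12), and Per1 read 96.2, 125.4 and 112 against 57.8, 30.4 and 30.4 (log2 -1.55). These period genes and Tef (659 in M off, 253 in Z off), Usp2 (233 and 41.6), Wee1 (106 and 34.7), Lpin1 (279.7 and 107), Cry2 and Bhlhe40 were lower on every Z off array. In the opposite direction, Arntl read 46.5, 29.3 and 38 in M off and 115.5, 96.2 and 178.7 in Z off (log2 1.75, SE 0.93). Npas2 (log2 2.33, dim), Cry1 (0.80) and Nfil3 (1.43, from 105 to 278) were higher without overlap. Nr1d1 (-0.22), Per2 (0.09) and Clock (0.28) overlapped between the groups.

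Promoters that hold a clock element are shown for those of the genes above whose groups did not overlap. Whether these genes shift together was not tested. In the 250 bases before the start of transcription, both strands were searched for the E-box CACGTG and for the D-boxes TTATGTAA and TTACGTAA. Of the 12 core clock genes with a promoter in the RefSeq table (GRCm38.p6), 3 held the E-box and 1 the D-box TTATGTAA, and of 13 clock output genes Tef held the E-box. The E-box was found in 6.02% of all 32851 such windows and TTATGTAA in 0.819%. These are shares of windows, whereas the list counts are of genes. The 12 core genes had 19 windows and the 13 output genes 18, so the 2 measures are unlike. Of the genes whose groups did not overlap, Per1, Cry1, Per3 and Tef are printed 5′ to 3′ with matches in capitals. Per1 lies at chr11:69098699-69098948 (plus strand), Per3 at chr4:151044666-151044915 (minus), Tef at chr15:81802423-81802672 and chr15:81811164-81811413 (plus, alternative starts) and Cry1 at chr10:85185055-85185304 (minus).
Per1: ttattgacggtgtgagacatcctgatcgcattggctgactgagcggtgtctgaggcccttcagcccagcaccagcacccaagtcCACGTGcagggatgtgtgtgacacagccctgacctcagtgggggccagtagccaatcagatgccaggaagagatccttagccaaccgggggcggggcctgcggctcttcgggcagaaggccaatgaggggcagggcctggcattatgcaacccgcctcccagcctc
Per3: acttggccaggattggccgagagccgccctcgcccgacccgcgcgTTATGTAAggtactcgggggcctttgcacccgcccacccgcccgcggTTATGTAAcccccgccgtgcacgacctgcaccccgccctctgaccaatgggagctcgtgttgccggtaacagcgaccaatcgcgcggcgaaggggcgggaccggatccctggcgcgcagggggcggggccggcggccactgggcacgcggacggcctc
Tef, start 1: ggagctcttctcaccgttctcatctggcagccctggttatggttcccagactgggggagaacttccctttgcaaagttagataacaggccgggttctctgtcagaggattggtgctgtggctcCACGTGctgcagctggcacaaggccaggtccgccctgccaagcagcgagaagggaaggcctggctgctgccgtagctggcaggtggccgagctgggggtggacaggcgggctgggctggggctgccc
Tef, start 2: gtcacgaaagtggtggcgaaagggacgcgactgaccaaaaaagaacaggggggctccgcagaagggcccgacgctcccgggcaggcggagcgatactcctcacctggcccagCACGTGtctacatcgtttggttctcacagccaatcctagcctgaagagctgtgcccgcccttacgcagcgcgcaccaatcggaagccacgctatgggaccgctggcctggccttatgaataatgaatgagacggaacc
Cry1: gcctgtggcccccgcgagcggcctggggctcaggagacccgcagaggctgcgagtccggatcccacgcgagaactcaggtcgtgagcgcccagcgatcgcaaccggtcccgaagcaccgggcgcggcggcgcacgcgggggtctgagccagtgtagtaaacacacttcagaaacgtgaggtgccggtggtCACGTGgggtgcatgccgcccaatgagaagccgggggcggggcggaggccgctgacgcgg
The E-box ended 160 bases before the start in Per1 and 54 in Cry1, and the D-boxes of Per3 ended 197 and 150 bases before it. Per1 and Tef, with an E-box, were lower in Z off, and Cry1, with the same element, was higher. Dbp, Nr1d2 and Arntl held none of these letters in this window.

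In Z on minus M on the core list had a median of 0.07 and the output list 0.00. Individual genes still differed there: Nfil3 (1.57) and Cry1 (0.72) were higher and Bhlhe40 (-1.11) lower in Z on without overlap, as in the off state, whereas Cry2 was higher by 1.45. Arrays of 1 group differed among themselves. Of the 16 clock genes whose off groups did not overlap, Z on replicate 3 lay beyond both other Z on arrays on the Z off side for 15, whereas Z on replicates 1 and 2 did so for 1 and 0. Among the M on arrays replicate 3 did so for 10, and replicates 1 and 2 for 3 each. The Dbp signal of Z on replicate 3 was 80.1, against 1365 and 1385.3 on the other Z on arrays. Without Z on replicate 3 the output list had a median of 0.36 in Z on minus M on, and the core list 0.08.

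**Figure D4:**
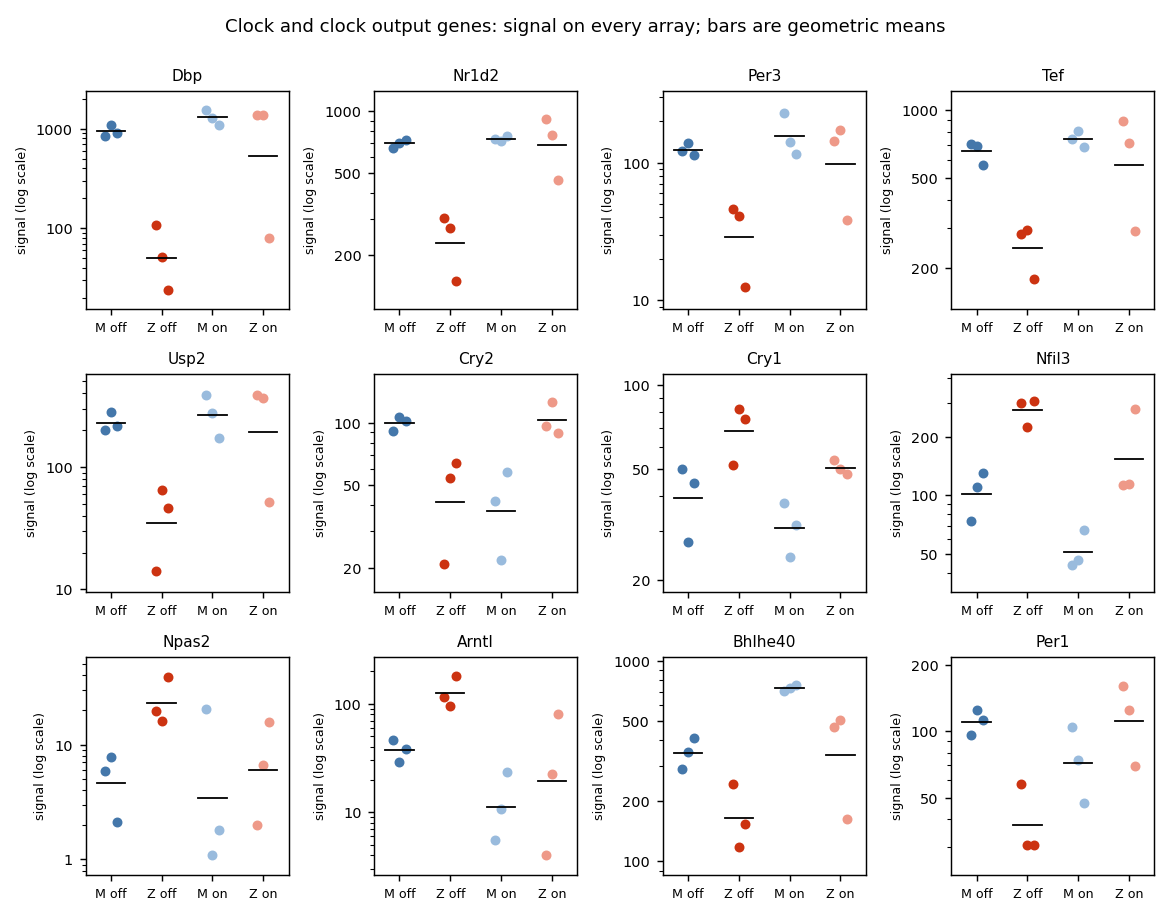
Signal of 12 clock and clock output genes on every array, log axes, 3 arrays a group, bars at geometric means. Dbp, Nr1d2, Per3, Tef, Usp2, Cry2, Bhlhe40 and Per1 are lower and Cry1, Nfil3, Npas2 and Arntl higher on the Z off than on the M off arrays; Z on replicate 3, the right-hand point of its group, has Dbp at 80.1.

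Enzymes of cholesterol synthesis stood higher in Z off. This pathway turns acetyl-CoA into sterol through mevalonate and squalene under the factor SREBP2. Of 18 genes measured, 17 were higher, against 51.9% of all genes, with a median of 0.57 against 0.02. The groups of 8 (44.4%) did not overlap, against 15.6% of all genes and 22.7% of the brighter probe sets. No gene of the list was among the 16 calls, and Pmvk was called in the brighter set. Pmvk read 86.3, 84.9 and 109.6 in M off and 185.2, 237.3 and 212.4 in Z off. Idi1, which isomerises isopentenyl units, read 365, 299.1 and 449.2 against 613.3, 717.8 and 706.4 (log2 0.89, SE 0.23), and Fdps, farnesyl diphosphate synthase, read 235.2, 487.3 and 505.5 against 651.1, 1133.6 and 984 (log2 1.22, SE 0.37). Neither overlapped between the groups. Lss, Dhcr7 and Mvd were also without overlap (0.64, 0.76 and 0.66), while Hmgcs1 (0.48) and Sqle (0.78) overlapped. On the other 6 arrays 13 of the 18 were higher in the Z line, against 48.9% of all genes, with a median of 0.13.

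Genes of fatty acid synthesis and storage gave no common direction, while most PPAR-alpha targets and oxidation genes were lower. Among 22 genes of fatty acid synthesis and storage 13 were higher and 9 lower (median 0.10). The groups of 36.4% of them did not overlap, against 15.6% of all genes and 22.7% of the brighter probe sets. Plin2, the coat protein of lipid droplets, read 2020.3, 1857.4 and 2107.4 in M off and 4225.4, 3634.5 and 3211.5 in Z off (log2 0.88, SE 0.18) and was called in the brighter set. Me1, malic enzyme, was at 873 in M off and 1773 in Z off, and Acly and Fasn were higher by 0.55 and 0.51, all without overlap. Srebf1, the regulator of these enzymes, was at 1829.7 in M off and 991 in Z off (-0.88), lower on every array. Of 21 PPAR-alpha targets and oxidation genes 6 were higher (28.6%, against 51.9% of all genes), Acaa2 being the one called, and 15 lower (median -0.22). Ppara was at 993 and 482 (log2 -1.10) and Cyp4a14, a fatty acid hydroxylase and PPAR-alpha target, was dim in both groups (40.6 and 1.90). Both were lower without overlap.

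Bile acid genes differed in both directions. Of 21, 11 (52.4%) had groups that did not overlap, against 15.6% of all genes and 22.7% of the brighter probe sets. Cyp8b1, the sterol 12-alpha-hydroxylase, read 338.2, 489.2 and 526.7 in M off and 1415.3, 1714.8 and 1087.5 in Z off (log2 1.64, SE 0.38) and was called in the brighter set. Cyp7a1, which controls the classic pathway, was at 347 and 789 (log2 1.22), Cyp7b1 at 1191 and 2378 (1.04), and Cyp27a1 at 1816 and 2759 (0.60). The synthesis enzymes named here were thus higher on every Z off array. Among transporters of the list, Slco1b2, an uptake carrier (-0.59), Abcg5 and Abcg8, the sterol exporters (-0.59 and -0.51), and Abcc3 (-0.39) were lower without overlap, and the carrier Slco1a1 (0.75) was higher. Nr5a2, a nuclear receptor of bile acid synthesis, was lower on every Z off array (-0.74).

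Male-biased liver genes, which depend on pulsed growth hormone, were higher in Z off for 11 of 14 (median 0.33), although all the animals were male. The groups of 8 (57.1%) did not overlap, against 15.6% of all genes and 22.7% of the brighter probe sets. Elovl3, a fatty acid elongase, read 1177.6, 606.1 and 705.4 in M off and 2698.6, 3953 and 3518.7 in Z off (log2 2.07, SE 0.43) and was called in the brighter set. Slco1a1, an organic anion carrier, read 1694.6, 1812 and 1490 against 2545.9, 2638.2 and 3212.4 (log2 0.75, SE 0.18), again without overlap. Hsd3b5 (0.95), Ugt2b38 (0.97) and the complement gene C6 (0.55) were higher on every Z off array. On the on arrays 9 of the 14 were higher in the Z line, with a median of 0.38. Of 14 female-biased genes 12 were lower in Z off (median -0.70), but 1 of the 14 had a mean signal of 100 or more, and the groups of 2 did not overlap.

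Stress lists were mixed. Of 28 genes of endoplasmic reticulum folding and degradation 18 were higher (median 0.09) and 8 (28.6%) did not overlap. That share was near the 22.7% of the brighter probe sets, and 27 of the 28 had a mean signal of 100 or more. Dnajb9, a co-chaperone of BiP, was at 460 in M off and 782 in Z off (log2 0.78, SE 0.22), and Syvn1, a ubiquitin ligase of that compartment, at 300.4 and 442 (0.56). Hspa5, which encodes BiP, read 4629, 4249.5 and 4247.2 against 4617.1, 5845.9 and 5237.3 and overlapped (0.25). Of 20 genes of the integrated stress response 9 were higher and 11 lower (median -0.12), and 4 were higher and 16 lower on. Ddit3, the CHOP factor of that list, was dim (64.4 ± 19.1 and 102 ± 17.5) and without overlap (0.70). Of 19 cytosolic heat shock genes 12 were higher (median 0.22), and 36.8% did not overlap, against 15.6% of all genes and 22.7% of the brighter probe sets. Hspa1b was called in the brighter set on 2 of its 3 probe sets (1.30 and 1.19). Its brightest probe set differed by 0.54 and was not called. Leaving out each of the 6 off arrays in turn, the 2 calls passed in 2 and 0 of the fits. Bag3, a co-chaperone of Hsp70, was at 81.9 and 163 (1.00) and Hsp90aa1 at 772 and 1187 (0.62), both higher on every Z off array. Sqstm1, an autophagy receptor that also marks oxidative stress, was at 1337 ± 73.8 and 2009 ± 147 (0.59) without overlap. Among 17 glucocorticoid-responsive genes 6 were higher and 11 lower (47.1% without overlap, against 15.6% of all genes). The metallothioneins Mt2 (-1.97) and Mt1 (-1.22) lay below M off on every Z off array.

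**Figure D5:**
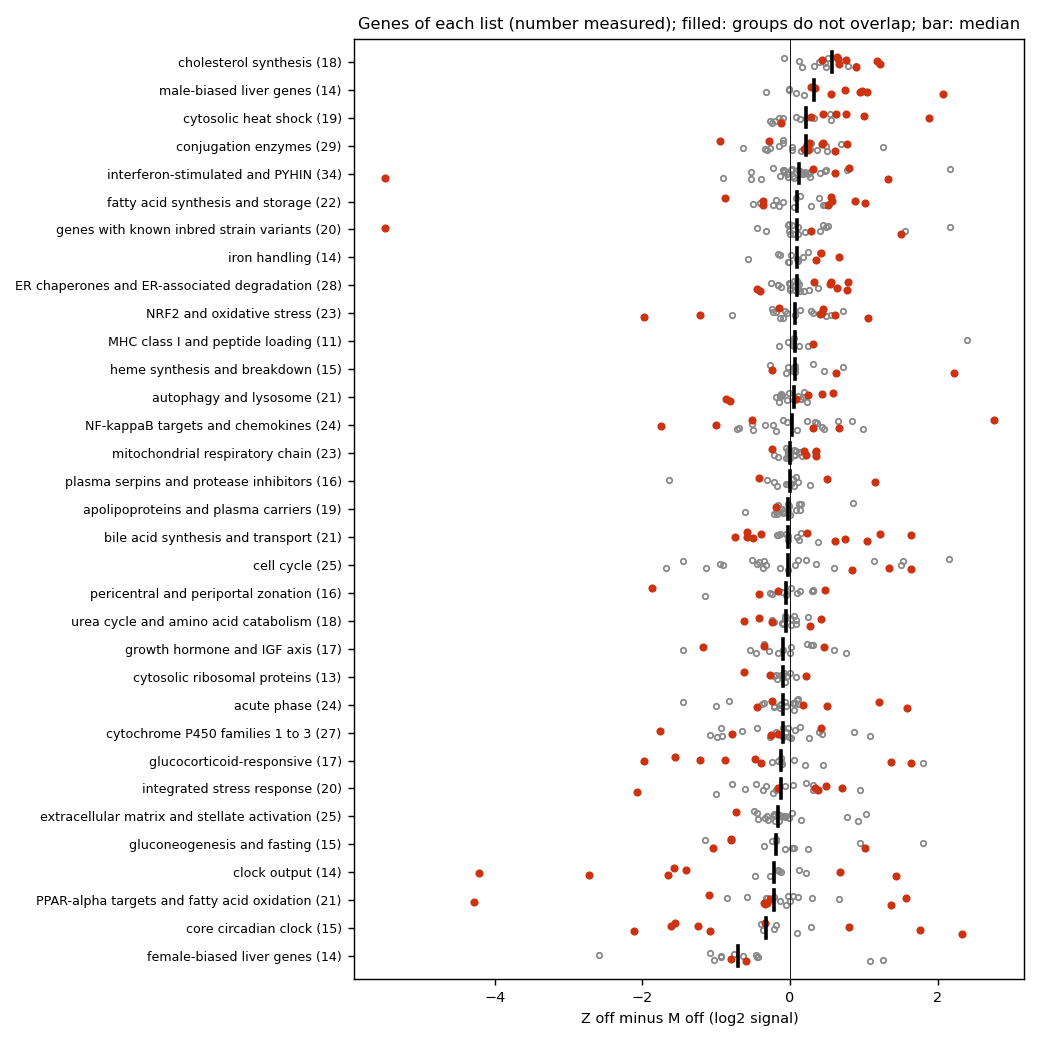
Log2 difference Z off minus M off for the genes of the pathway lists with at least 10 genes measured (1 probe set per gene), ordered by median (bar); filled points are genes whose groups do not overlap. Cholesterol synthesis has the highest median (0.57) and the female-biased list the lowest (-0.70), while clock and bile acid genes spread to both sides.

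Markers of blood and immune cells were read beside these results. In whole liver, more cells of a type and more RNA per cell cannot be told apart. Of 16 erythroid markers 10 were measured; 7 were higher in Z off and the groups of 4 did not overlap (Alas2, Gata1, Tfrc and Sptb). The summed signal of the 10 was 563.5 to 672.2 in M off and 1499.4 to 1940.1 in Z off, and without Alas2 it was 309.3 to 365.6 and 380.6 to 532.6. On the other arrays the sum without Alas2 was 377.7 to 399.7 in M on and 403.1 to 421.6 in Z on. Without Alas2, M off thus lay below the other groups, and Z off overlapped both on groups. Gata1, the erythroid transcription factor, was dim (25.1 in M off and 55.5 in Z off), and the membrane proteins Slc4a1 and Epb42 overlapped. Among 15 genes of heme synthesis and breakdown Alas2 and Blvrb, a biliverdin reductase (499.6 and 767, log2 0.62), were higher without overlap, and Fech, the last enzyme of the pathway, differed by 0.05. Of 13 macrophage and Kupffer cell markers 9 were higher, among them Clec4f, Vsig4, Csf1r and Mpeg1 without overlap, and Cd163 and Cd5l were lower without overlap. Their summed signal was 2175 to 2481 in M off and 2536 to 2841.3 in Z off. Skeletal muscle markers summed to 161 to 682.4 in M off and 150 to 194.4 in Z off. The part of these cells in the differences was not tested.

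Genes known to vary between inbred strains were listed because the strain is not given. Of 20 measured, 13 were higher and 7 lower (median 0.10), and the groups of 3 (15%) did not overlap, near the 15.6% of all genes. The 3 were Mndal, Hc and Glo1, a glyoxalase (0.28). Nnt, a mitochondrial transhydrogenase, read 870.9, 1072.8 and 1173.9 in M off and 683.6, 916.1 and 687.5 in Z off and overlapped (-0.45). On the other arrays it was 985.2 to 1096.9 in M on and 537.8 to 689.2 in Z on. Of 16 plasma serpins and protease inhibitors 8 were higher and 8 lower; Serpina12 (791 and 1695, log2 1.14) and Itih3 (0.50) were higher without overlap.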

How the data were processed

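Liver RNA of 12 mice was measured on 12 one-colour arrays. The deposited intensities are linear probe set signals. The submitters' processing notes name RMA, but the values are linear, with a trimmed mean of 150.07 to 150.08 on each array and unequal medians, as array-by-array scaling gives; no label names the software that scaled them. Groups came from titles. Signals were taken as log2 after 1 value of 0 was set to 0.1, and no further normalization was applied. The model gave each of the 4 groups its own mean over 12 arrays (limma 3.58.1 in R 4.3.3, lmFit and eBayes, two-sided), with Benjamini-Hochberg adjustment over 22626 probe sets (64 controls left out). A call is an adjusted p under 0.05. Of the probe sets, 20380 had 1 gene symbol, 691 several and 1555 none in the platform annotation; symbols were updated by gene identifier through RefSeq (GRCm38.p6). Lists were described by counts and medians over 1 probe set per gene, that with the highest mean, for 788 of 905 entries of 48 lists, with no test. "Higher" and "lower" for list members give the sign only.

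The members, lists and tests were chosen with earlier results of these data known. The named genes are called genes with a mean of 100 or more and groups without overlap, then those of the smallest p up to 12 in a direction, up to 5 dim calls each way, the 4 smallest interaction p, called list members and up to 4 others per list by p, and 11 fixed genes; further members were named after their values were seen. P-values measure the spread between these arrays. Promoter letters were searched with Python. The fit was tested on simulated data, and figures were drawn with matplotlib. Alternatives are given in the closing section.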

Additional observations from a re-analysis of the deposited data

Results flagged for a closer look

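For 2 genes the line difference itself differed between the off and on states by a test of the difference in the brighter set. For Alas2, Z minus M was 2.22 off and -0.51 on, a change of 2.73 (SE 0.28). The limma adjusted p was 0.000359 among the 7083 brighter probe sets and 0.0624 among all. For Stbd1, Z minus M was -1.10 off and 0.33 on, a change of -1.42 (SE 0.24), with an adjusted p of 0.0306 among the brighter probe sets and 0.23 among all. In Alas2 the 3 Z off arrays lay above the other 9, and in Stbd1 they lay below the other 9, while the M off arrays lay above the other 9 (569.5 to 653.2 against at most 508.7).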

How the results depend on the processing

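The 16 off calls became 36 with 50 added before log2, 51 with an intensity trend and robust variances, 26 with array weights, 52 in the brighter set, 3 against a minimum of 1.5-fold and 0 with the off groups alone (1725 at an unadjusted p under 0.05). The 2 on calls became 9 after quantile normalization, 10 and 19 with 16 and 50 added, 22 with the trend, 23 in the brighter set, 1 against 1.5-fold and 0 with the on groups alone (1365 unadjusted). The 0 interaction calls became 1 after median centring, with 16 added and with array weights, and 2 with 50 added, with the trend, in the brighter set and with 1 probe set per gene. The 52 brighter calls became 80 with 50 added, 225 with array weights and 84 with the off groups alone. Leaving out 1 array gave 1 to 11 off calls (7, 5 and 11 without Z on replicate 1, 2 or 3 and 5 without any M on array), 0 to 5 on calls, 0 to 2 interaction calls and 25 to 105 brighter calls. The lowest brighter counts came without M off replicate 1, 2 or 3 (25, 29 and 27) and Z off replicate 2 or 3 (26 and 32), and the highest without Z on replicate 3 (105). Settings not named gave counts within 1.5 times. With the replicate block there were 6 off, 0 on (1570 unadjusted) and 69 brighter calls. Deviations from the group mean of same-numbered M off and Z off samples correlated at 0.00125 to 0.0728. These values are small, but 3 pairs cannot exclude a pairing by number. Alb turned from -0.10 to 0.06 without M off replicate 1 (-0.27 to 0.06 over omissions) and Nr1d1 from -0.22 to 0.16 without Z off replicate 3 (-0.71 to 0.16). Asic5 passed in 22 of 23 alternatives, Alas2 in 21, Acaa2 in 11, Cyp3a13 in 10, Mccc1, Aldh1b1 and Vps37c in 8 and Isoc2b in 7; of 22 alternatives Mndal (its brighter probe set) passed in 19, Rps9 in 9, Uri1 and Gbx2 in 8, Nfkbie in 7 and Lfng in 5. Of the 12 omissions of an array, Mccc1, Aldh1b1, Isoc2b and Lfng passed in 0 and Rps9, Uri1 and Vps37c in 1. Of other values of single genes 2360 kept direction and side of the threshold, 198 lost the call and 110 gained it; 457 list medians moved by less than the spread between arrays and 23 by more. The median of cholesterol synthesis ran from 0.47 to 0.69 and that of the core clock from -0.46 to -0.19. Neighbouring called genes numbered 0 within 10 and within 5 genes. Signals under 16, 28.4% of all values, limit what could be measured for dim genes.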

Other observations

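Immune and inflammatory genes gave no common direction between Z off and M off. Of 34 interferon-stimulated and PYHIN genes 22 were higher and 12 lower (median 0.12). The groups of 5 (14.7%) did not overlap, near the 15.6% of all genes. Stat2, a subunit of the interferon-activated factor ISGF3, read 35.9, 40.4 and 32.5 in M off and 109.8, 81.7 and 83 in Z off (log2 1.33, SE 0.20), and was not called. Of 24 NF-kappaB targets and chemokines 12 were higher and 12 lower. Nfkbia, the inhibitor of NF-kappaB that the factor itself induces, was at 1427 in M off and 1002 in Z off (log2 -0.52), lower on every array, whereas its relative Nfkbie was called higher. The serum amyloid gene Saa1 read 449.7, 307.8 and 260.8 against 1054.2, 1589.5 and 587.7 (log2 1.59, SE 0.92).

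Genes of fuel metabolism outside the lipid lists differed in a few members. G6pc, the glucose-6-phosphatase of gluconeogenesis, read 748.5, 854.2 and 1485.7 in M off and 2436.3, 1590.4 and 1994.2 in Z off (log2 1.01, SE 0.32). The forkhead factors Foxo1 (-0.80) and Foxo3 (-1.05) and the coactivator Ppargc1a (-0.80) were lower on every Z off array. Of 29 conjugation enzymes 20 were higher (median 0.21), Gstp1 among them (8489.5 in M off and 12822 in Z off, log2 0.60). Osgin1, which is induced by oxidative stress, was at 755 and 1566 (log2 1.05, and -0.95 on). Of 25 extracellular matrix genes 20 were lower (median -0.16), and the groups of 1, Mmp2, did not overlap. None of the genes named in these paragraphs except Nfkbie was called.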
